A study of Mus musculus with 18 samples.

Results

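Expression of 9 genes for serine proteases and their inhibitors was examined in organoids of the mouse colon, which are epithelial cultures grown from the tissue. The genes were chosen by name, 6 of them for proteases (Prss30, Prss8, St14, Tmprss2, Tmprss4 and Klk1) and 3 for inhibitors (Spint1, Spint2 and Slpi), out of 56748 genes measured by bulk sequencing of poly-A RNA. Organoids came from the proximal, mid or distal colon and were kept in a differentiation medium or in a control medium, in both cases starting 3 days after passaging. Control organoids were held in a proliferative state by ENR supplemented with medium conditioned with Wnt3a. Each of the 6 combinations of region and medium had 3 libraries, 18 in all. No strain, sex, age or genotype is given in the labels used here, and the labels leave unsaid whether replicates with different numbers come from different animals or only from different cultures, so p-values measure only the spread between these libraries. The title of the series concerns control of colon regional identity, and the comparisons below ask how the medium and the region of origin were tied to the level of these genes.

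Many epithelial serine proteases are made as inactive precursors that are held at the cell surface and are switched on by cleavage, either by themselves or by each other. Matriptase, encoded by St14, and prostasin, encoded by Prss8, form such a pair at the surface of epithelial cells, and the Kunitz-type inhibitors HAI-1 (Spint1) and HAI-2 (Spint2) bind and restrain them. In the gut this system is known for cleaving the epithelial sodium channel, protease-activated receptors and the adhesion protein EpCAM, and human SPINT2 is a gene of congenital sodium diarrhoea. Levels of RNA, the only quantity measured here, do not show how much of an enzyme is active.

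Values are given in FPKM, in which fragments are divided by the length of the gene and by a library size, so genes can be compared per length. The library size used differed from the summed reads of the library. Recovered depth was 12827751 to 19938198 reads per library, and libraries of the same group correlated at r of 0.953 to 0.990 on the log2(FPKM + 1) scale across genes. All 9 epithelial markers were detected in all groups. The 8 fibroblast and smooth muscle markers summed to at most 0.190 FPKM in any library, and the 8 immune markers to at most 4.15 FPKM. Summed colonocyte markers reached 14257 to 24996 FPKM in differentiation medium over the 9 libraries, against 333 to 2205 FPKM in control medium. Summed goblet cell markers were 1060 to 3612 FPKM in differentiation medium, against 64.3 to 437 FPKM in control medium, and summed crypt and proliferation markers were 31.6 to 86.6 FPKM in differentiation medium, against 118 to 244 FPKM in control medium. In bulk RNA, a change in the number of cells of a type and a change in RNA per cell cannot be told apart, and the part of these shifts in the results below was not tested. On the first principal component (63.5% of the variance) proximal differentiation replicate 1 stood apart, at -5.80, against -44.1 and -37.9 for the other 2 libraries of its group and 45.8 to 62.6 for the control libraries. Results that involve proximal differentiation libraries are therefore also given without it where it changes a call. Part of Prss8, St14, Tmprss4 and Klk1 overlaps a gene on the opposite strand, and whether the libraries kept the strand is not stated. The highest level of any of these partners was 7.51 FPKM, for Kat8, which shares 122 bases with Prss8.

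Differentiation medium went with higher RNA for most of the 9 genes. In proximal organoids 6 genes rose and 0 fell (the same 6 had an unadjusted p under 0.05), in mid organoids 8 rose and 1 fell, and in distal organoids 8 rose and 1 fell (limma on log2(FPKM + 1), Benjamini-Hochberg adjusted p under 0.05 over 12896 genes). The gene that fell in mid and distal organoids was Prss8. Over all genes tested, 27.6% rose and 26.2% fell in proximal, 31.5% rose and 32% fell in mid, and 31.6% rose and 31.3% fell in distal organoids. The median log2 fold change of the 9 genes was 0.77 in proximal, 1.35 in mid and 1.47 in distal organoids, against -0.01, 0.00 and 0.00 over all genes tested. These values depend on how libraries are scaled. The library size behind FPKM was 0.757 to 1.04 times the summed reads in differentiation libraries and 1.15 to 1.20 times in control libraries. FPKM therefore sets differentiation libraries higher against control libraries than scaling to summed reads does. With FPKM rescaled to the summed reads of each library, the median of all genes moved to -0.26 in proximal, -0.34 in mid and -0.35 in distal organoids, and the shares of genes that rose and fell became 18.3% and 40.5%, 18.7% and 47.0%, and 18.2% and 47.8%. On that scale all 8 genes that rose in distal organoids still rose, Tmprss4 no longer passed in mid organoids (log2 0.22, adjusted p = 0.140), and Prss8 also fell in proximal organoids (log2 -0.33, adjusted p = 0.00722).

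**Figure D1:**
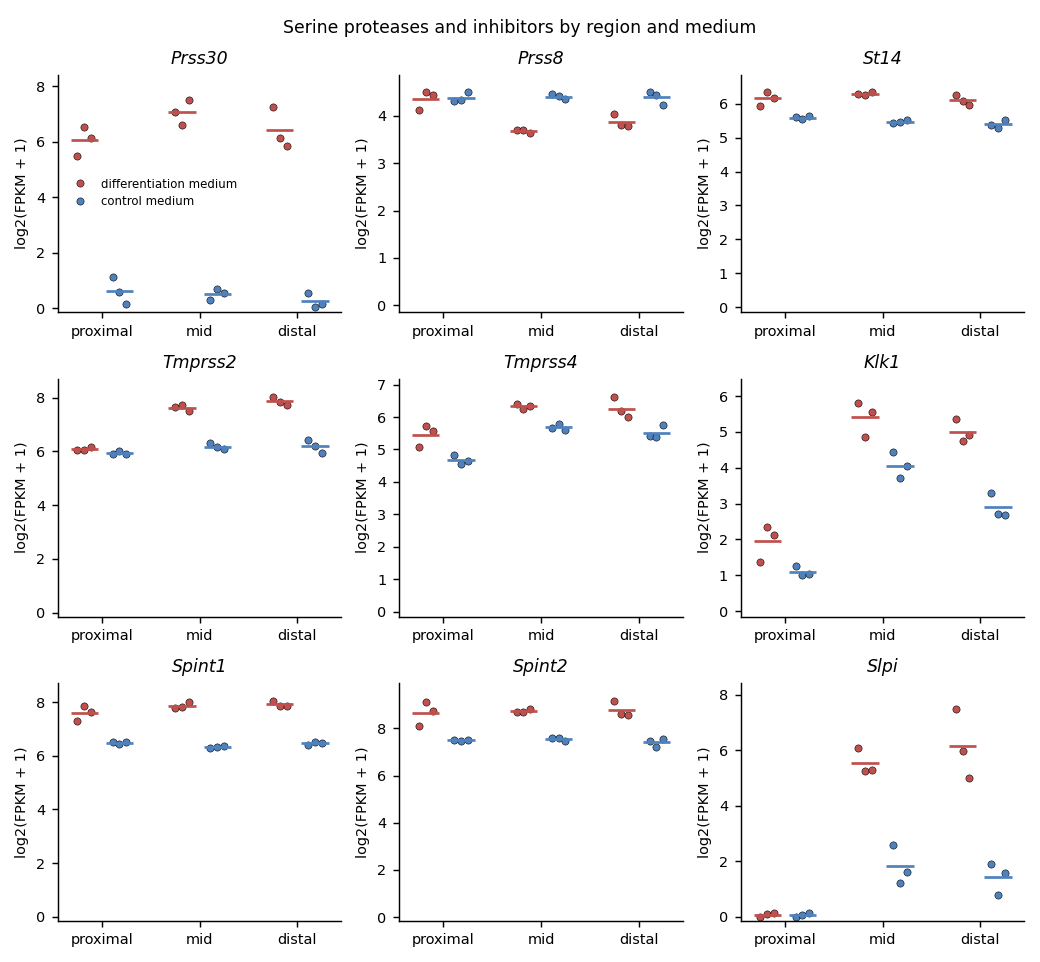
Level of each of the 9 genes in log2(FPKM + 1) in every library (points), with the group mean (lines), for proximal, mid and distal organoids in differentiation medium (left, red) and control medium (right, blue). Prss30 was under 1.2 FPKM in all control libraries and above 43 FPKM in all differentiation libraries, whereas Slpi stayed under 0.11 FPKM in proximal organoids in both media.

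Promoter sequences are shown for 5 genes that stand for the patterns described below: Prss30 for the largest medium response, Spint1 and Spint2 for a rise in all 3 regions, and Klk1 and Slpi for differences between regions. Windows run from 250 bases before to 50 bases after the RefSeq start site on the GRCm38.p6 build, written 5' to 3' along the gene. They belong to Prss30 (chr17:23975181-23975480, minus strand), Spint1 (chr2:119237110-119237409, plus strand), Spint2 (chr7:29281928-29282227, minus strand), Klk1 (chr7:44225110-44225409, plus strand) and Slpi (chr2:164356458-164356757, minus strand). Capitals mark GC boxes (GGGCGG), an AP-1 motif (TGANTCA) and an E-box of the CACGTG kind, each on either strand.
Prss30: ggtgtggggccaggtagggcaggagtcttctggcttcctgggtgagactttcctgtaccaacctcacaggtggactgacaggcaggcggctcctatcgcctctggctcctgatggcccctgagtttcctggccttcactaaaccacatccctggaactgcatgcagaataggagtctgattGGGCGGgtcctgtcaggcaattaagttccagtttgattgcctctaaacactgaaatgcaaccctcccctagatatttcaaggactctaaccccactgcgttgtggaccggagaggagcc
Spint1: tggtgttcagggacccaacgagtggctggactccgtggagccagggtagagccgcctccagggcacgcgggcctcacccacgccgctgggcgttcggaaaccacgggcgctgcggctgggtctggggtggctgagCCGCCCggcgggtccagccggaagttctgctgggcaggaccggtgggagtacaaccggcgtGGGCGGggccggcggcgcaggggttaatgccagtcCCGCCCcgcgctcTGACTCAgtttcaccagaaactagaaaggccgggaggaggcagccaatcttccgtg
Spint2: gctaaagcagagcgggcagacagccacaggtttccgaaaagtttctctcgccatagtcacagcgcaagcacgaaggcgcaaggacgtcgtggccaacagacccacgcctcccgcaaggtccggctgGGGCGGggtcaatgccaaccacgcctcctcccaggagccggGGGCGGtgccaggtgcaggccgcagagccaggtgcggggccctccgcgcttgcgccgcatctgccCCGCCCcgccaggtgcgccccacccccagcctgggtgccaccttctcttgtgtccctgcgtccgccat
Klk1: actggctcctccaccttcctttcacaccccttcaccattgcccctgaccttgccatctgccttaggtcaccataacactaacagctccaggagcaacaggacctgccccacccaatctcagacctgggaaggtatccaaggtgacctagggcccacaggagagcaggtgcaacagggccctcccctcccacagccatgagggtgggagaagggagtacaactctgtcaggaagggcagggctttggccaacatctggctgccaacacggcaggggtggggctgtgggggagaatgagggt
Slpi: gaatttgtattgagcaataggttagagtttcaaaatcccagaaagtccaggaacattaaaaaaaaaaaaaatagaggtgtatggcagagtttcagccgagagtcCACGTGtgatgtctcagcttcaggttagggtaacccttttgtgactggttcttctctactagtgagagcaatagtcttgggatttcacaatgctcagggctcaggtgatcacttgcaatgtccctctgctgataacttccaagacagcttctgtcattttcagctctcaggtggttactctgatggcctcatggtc
Spint1 and Spint2, which rose together in all 3 regions, each held 3 GC boxes and had 28 and 26 CpG dinucleotides, against a median of 7 over 32851 promoters of the same length. Klk1 and Slpi, whose levels differed between regions, held 1 and 2 CpG dinucleotides and no GC box. Prss30, which also rose in all 3 regions, held 5 and a single GC box. Tmprss2 also differed between regions in differentiation medium, and its window (chr16:97611146-97611445, minus strand) had 13 CpG dinucleotides and no match. A link between CpG content and these patterns was not tested. The AP-1 motif of Spint1, 7 bases long, began 6 bases before the start site and so reached it. In Slpi the E-box began 146 bases before the start site. Of all promoters, 35.7% held a GC box, 7.81% the AP-1 motif and 7.15% the E-box. A TATA box (TATAAA, 13.6%), a CDX core (TTTATNG, 10.9%), an HNF4 motif (CAAAGTCCA, 0.475%) and a grainyhead motif (AACCNGTT, 2.09%) were not found in the 6 windows. The GC box, AP-1 motif and E-box were searched on both strands, as were the others, and a match is a string of letters, not a measured binding site. RefSeq windows for Prss8, St14 and Tmprss4 were not used here.

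Prss30, a membrane-anchored protease known from the distal intestine of the mouse (ENSMUSG00000024124, mm39 chromosome 17, 24191100 to 24199540, minus strand), showed the largest medium response of the 9 genes. In proximal organoids it measured 43.8, 91.7 and 68.1 FPKM in differentiation medium, against 1.17, 0.515 and 0.123 FPKM in control medium. In mid organoids it measured 133, 95.2 and 179 FPKM in differentiation medium, against 0.215, 0.632 and 0.464 FPKM in control medium. In distal organoids it measured 151, 69.2 and 56.9 FPKM in differentiation medium, against 0.446, 0.0394 and 0.115 FPKM in control medium. The groups did not overlap in any region. By mean, Prss30 was the second of the 6 proteases in all 3 regions in differentiation medium. In proximal organoids it averaged 67.9 FPKM there, close to Tmprss2 at 67.3 FPKM. In control medium it was the lowest of the 6 in all 3 regions. Group means were 113 times higher in proximal, 310 times in mid and 460 times in distal organoids, where the control groups held 76, 63 and 29 reads in total. On the log2(FPKM + 1) scale, which understates such folds, the rise was 5.42 ± 0.35 in proximal, 6.54 ± 0.35 in mid and 6.16 ± 0.35 in distal organoids (SE; limma adjusted p = 3.73e-08, 2.36e-09 and 5.29e-09). The moderated F test of any difference between the 3 rises did not pass (limma adjusted p = 0.320). Its share of the summed FPKM of the 6 proteases was 24.4% ± 4.58 in proximal, 24.7% ± 6.07 in mid and 17.1% ± 5.66 in distal organoids in differentiation medium, against 0.391% ± 0.340, 0.219% ± 0.108 and 0.103% ± 0.107 in control medium (SD, n = 3 each).

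St14 and Prss8, which encode the partners matriptase and prostasin, moved in different directions. St14 (ENSMUSG00000031995, chromosome 9, 31000698 to 31043149, minus strand) measured 60.7, 80.97 and 70.6 FPKM in proximal, 76.9, 75.2 and 80.4 FPKM in mid and 76.0, 66.3 and 61.9 FPKM in distal organoids in differentiation medium, and every control library lay between 37.7 and 48.3 FPKM. Differentiation and control libraries did not overlap in any region. St14 rose by 0.57 ± 0.11 in proximal, 0.82 ± 0.11 in mid and 0.72 ± 0.11 in distal organoids (log2, SE; limma adjusted p = 0.000535, 1.31e-05 and 4.86e-05), and the proximal rise did not pass after quantile normalization (log2 0.16, adjusted p = 0.0918). Prss8 (ENSMUSG00000030800, chromosome 7, 127524888 to 127529276, minus strand) was 16.5, 21.7 and 20.7 FPKM in proximal organoids in differentiation medium, against 18.9, 19.1 and 21.6 FPKM in control medium, and these libraries overlapped (log2 -0.02 ± 0.11, adjusted p = 0.884). In mid organoids Prss8 fell to 12.1, 12.02 and 11.4 FPKM in differentiation medium, against 20.9, 20.5 and 19.3 FPKM in control medium. In distal organoids it fell to 15.5, 13.0 and 12.7 FPKM in differentiation medium, against 21.8, 20.6 and 17.6 FPKM in control medium. The falls were -0.73 ± 0.11 in mid and -0.51 ± 0.11 in distal organoids (log2, SE; limma adjusted p = 5.33e-05 and 0.00102), with no overlap between media in either region. In control medium Prss8 averaged 20.01 FPKM in distal, 20.2 in mid and 19.9 in proximal organoids, and the regions overlapped.

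Tmprss2 and Tmprss4 encode type II transmembrane proteases, and TMPRSS2 is best known for cleaving the surface proteins of respiratory viruses in human cells. Tmprss2 (ENSMUSG00000000385, chromosome 16, 97365882 to 97412395, minus strand) was 199, 213 and 178 FPKM in mid organoids in differentiation medium, against 77.2, 70.1 and 66.8 FPKM in control medium. In distal organoids it was 259, 227 and 210 FPKM in differentiation medium, against 85.4, 72.3 and 59.7 FPKM in control medium. In proximal organoids it was 65.1, 65.5 and 71.1 FPKM in differentiation medium, against 57.9, 63.1 and 58.6 FPKM in control medium. The media did not overlap in any region, but the gap in proximal organoids was small. Tmprss2 rose by 1.45 ± 0.13 in mid and 1.67 ± 0.13 in distal organoids (log2, SE; limma adjusted p = 2.50e-07 and 7.00e-08). The proximal difference of 0.17 ± 0.13 did not pass (adjusted p = 0.280) and turned negative when libraries were rescaled to summed reads (-0.15) or quantile normalized (-0.28). Tmprss4 (ENSMUSG00000032091, chromosome 9, 45084024 to 45115390, minus strand) was 32.9, 51.7 and 46.0 FPKM in proximal, 82.9, 75.0 and 80.2 FPKM in mid and 96.6, 71.3 and 62.4 FPKM in distal organoids in differentiation medium. Its control libraries ranged over 22.5 to 27.6 FPKM in proximal, 47.5 to 54.0 FPKM in mid and 40.6 to 52.4 FPKM in distal organoids, below the differentiation libraries of the same region. The rise was 0.77 ± 0.17 in proximal, 0.64 ± 0.17 in mid and 0.74 ± 0.17 in distal organoids (log2, SE; limma adjusted p = 0.00157, 0.00404 and 0.00150). After quantile normalization it no longer passed in mid (log2 0.21, adjusted p = 0.137) and distal organoids (log2 0.27, adjusted p = 0.0632).

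Klk1 encodes tissue kallikrein, a secreted protease that releases kinins from kininogen (ENSMUSG00000063903, chromosome 7, 43874784 to 43879042, plus strand). Its level depended on the region in both media. Klk1 was 40.2, 25.6 and 29.3 FPKM in distal and 55.5, 27.9 and 45.9 FPKM in mid organoids in differentiation medium, against 1.57, 4.08 and 3.40 FPKM in proximal organoids. In control medium it was 8.83, 5.59 and 5.45 FPKM in distal and 20.5, 12.1 and 15.6 FPKM in mid organoids, against 1.37, 1.03 and 1.05 FPKM in proximal organoids. Every mid and distal library was above every proximal library of the same medium, and in each region the differentiation libraries were above the control libraries. Between media Klk1 rose by 1.35 ± 0.29 in mid and 2.10 ± 0.29 in distal organoids (log2, SE; limma adjusted p = 0.000768 and 1.80e-05). By group means it rose 2.61 times in proximal, 2.69 times in mid and 4.78 times in distal organoids. The log2(FPKM + 1) scale understates folds at the low levels of proximal organoids. The proximal rise of 0.84 ± 0.29 (adjusted p = 0.0212) was a borderline call. It did not pass without proximal differentiation replicate 2 (0.65, adjusted p = 0.105) or 3 (0.75, adjusted p = 0.0764), without proximal control replicate 2 (0.80, adjusted p = 0.0590) or 3 (0.81, adjusted p = 0.0558), with no filter on low values (0.84, adjusted p = 0.0503) or with limma voom on the recovered reads (1.26, adjusted p = 0.122), and it did pass without proximal differentiation replicate 1 (1.14, adjusted p = 0.00303). Against proximal organoids in differentiation medium, Klk1 was higher by 3.06 ± 0.29 in distal and 3.46 ± 0.29 in mid organoids (adjusted p = 1.05e-06 and 3.15e-07). Against proximal organoids in control medium it was higher by 1.80 ± 0.29 in distal and 2.96 ± 0.29 in mid organoids (adjusted p = 0.000513 and 3.65e-06). In control medium the folds of means over proximal organoids were 5.75 in distal and 13.9 in mid organoids. Summed goblet markers also differed by region, at 1734 to 2254 FPKM in distal, 2175 to 3612 FPKM in mid and 1060 to 1714 FPKM in proximal organoids in differentiation medium, and their part in the Klk1 difference was not tested. Of the 23 Klk1b genes, close copies of Klk1 that could share reads with it, 11 were above 0 in any library and the highest value was 0.911 FPKM.

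Spint1 and Spint2, the inhibitors of matriptase and prostasin, were the most abundant of the 9 genes and rose in all 3 regions. Spint1 (ENSMUSG00000027315, chromosome 2, 119067843 to 119080008, plus strand) was 156, 232 and 200 FPKM in proximal, 221, 222 and 258 FPKM in mid and 265, 232 and 231 FPKM in distal organoids in differentiation medium, and 76.9 to 90.6 FPKM in the 9 control libraries. Spint2 (ENSMUSG00000074227, chromosome 7, 28955748 to 28981337, minus strand) was 277, 546 and 423 FPKM in proximal, 410, 407 and 456 FPKM in mid and 577, 384 and 378 FPKM in distal organoids in differentiation medium, and 145 to 193 FPKM in the 9 control libraries. All 9 differentiation libraries were above all 9 control libraries for each of the 2 genes. Spint1 rose by 1.11 ± 0.12 in proximal, 1.55 ± 0.12 in mid and 1.47 ± 0.12 in distal organoids (log2, SE; limma adjusted p = 5.87e-06, 1.22e-07 and 2.43e-07). Spint2 rose by 1.15 ± 0.21 in proximal, 1.18 ± 0.21 in mid and 1.37 ± 0.21 in distal organoids (adjusted p = 0.000314, 0.000155 and 4.53e-05). Both rises passed under all 14 alternatives run for each region. By mean FPKM, Spint2 ranked 83 in proximal, 89 in mid and 81 in distal organoids among 21970 protein-coding genes in differentiation medium, against 157, 156 and 174 in control medium.

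Slpi encodes the secretory leukocyte protease inhibitor, which blocks neutrophil elastase and cathepsin G (ENSMUSG00000017002, chromosome 2, 164195990 to 164231015, minus strand). It was near the limit of detection in proximal organoids in both media. In proximal organoids it was 0, 0.0676 and 0.0955 FPKM in differentiation medium and 0, 0.0392 and 0.101 FPKM in control medium, which is 3 reads in total in each group, so no fold of means is given there. The fitted difference on the log2(FPKM + 1) scale was 0.01 ± 0.48 (SE; limma adjusted p = 0.992), a value that rests on those few reads. In mid organoids it was 66.8, 37.0 and 37.8 FPKM in differentiation medium, against 4.98, 1.34 and 2.08 FPKM in control medium. In distal organoids it was 180, 61.4 and 31.1 FPKM in differentiation medium, against 2.71, 0.729 and 1.99 FPKM in control medium. The media did not overlap in mid or distal organoids, and the distal differentiation libraries differed among themselves more than those of any other group, with replicate 1 highest. The rise was 3.73 ± 0.48 in mid and 4.73 ± 0.48 in distal organoids (log2, SE; limma adjusted p = 1.12e-05 and 1.38e-06), and 4.06 in distal organoids without distal differentiation replicate 1 (adjusted p = 2.48e-06). Between regions in differentiation medium, reads were divided by the library size behind FPKM. They were 1467 times higher in distal than in proximal organoids (exact 95% interval 502 to 7119, counting error only) and 863 times higher in mid than in proximal organoids (295 to 4185). In control medium the ratios were 38.0 for distal over proximal (12.7 to 187) and 60.6 for mid over proximal (20.4 to 296). The ratios depended on single libraries, left out here after the values were seen. In differentiation medium the distal ratio was 877 without distal differentiation replicate 1 (exact 95% interval 299.7 to 4258), 948 without proximal differentiation replicate 1 (324 to 4598) and 2736 without proximal differentiation replicate 3 (491 to 108078). The mid ratio was 557 without proximal differentiation replicate 1 (190.4 to 2703) and 1608 without proximal differentiation replicate 3 (288 to 63531). In control medium the mid ratio was 36.3 without mid control replicate 1 (11.98 to 179.8) and 125 without proximal control replicate 3 (22.2 to 4974), and the distal ratio was 78.6 without proximal control replicate 3 (13.8 to 3129). All 8 colonocyte markers were tested, and single markers moved with region in differentiation medium although their sums overlapped (16516 to 22753 FPKM in distal, 18635 to 22103 FPKM in mid and 14257 to 24996 FPKM in proximal organoids). Between distal and proximal organoids 4 were higher and 1 lower (median log2 0.89; background 29.9% of all genes tested). Between mid and proximal organoids 4 were higher and 0 lower (median log2 1.32; 29.4%). Their medium response differed for 3 of the 8 between distal and proximal (background 8.24%) and for 2 of the 8 between mid and proximal organoids (12%). Their part in the Slpi difference was not tested.

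Region differences were counted over the 9 genes in each medium. In differentiation medium 5 genes differed between distal and proximal organoids (background 29.9% of all genes tested), of which Tmprss2, Tmprss4, Klk1 and Slpi were higher and Prss8 lower in distal organoids. Between mid and proximal organoids 6 genes differed (29.4%), the same 5 in the same directions and Prss30, which was higher in mid organoids. Tmprss2 was higher by 1.77 ± 0.13 in distal and 1.53 ± 0.13 in mid organoids than in proximal organoids, and Slpi by 6.08 ± 0.48 in distal and 5.46 ± 0.48 in mid organoids (log2, SE; limma adjusted p of 6.60e-07 or lower for the 4 values). Without distal differentiation replicate 1 the distal value of Slpi was 5.41. Tmprss4 was higher by 0.80 ± 0.17 in distal and 0.87 ± 0.17 in mid organoids, and Prss8 lower, at -0.48 ± 0.11 in distal and -0.68 ± 0.11 in mid organoids (adjusted p = 0.00222, 0.00121, 0.00431 and 0.000337). Fitted on the distal and proximal groups alone, Prss8 and Tmprss4 missed the threshold between distal and proximal organoids (adjusted p = 0.0747 and 0.0614). The Prss30 difference of 1.003 ± 0.35 (adjusted p = 0.0425) was a borderline call. With all libraries kept it did not pass with a pseudocount of 0.1 (adjusted p = 0.232), with no filter on low values (0.0918), rescaled to summed reads (0.0501), fitted on the groups compared alone (0.0690) or with a replicate block (0.0517). It was 0.72 without proximal differentiation replicate 1 (adjusted p = 0.164), 1.04 without proximal differentiation replicate 3 (0.0794), 0.995 without mid differentiation replicate 1 (0.0975) and 0.78 without mid differentiation replicate 3 (0.164). Spint1 passed in both comparisons only when proximal differentiation replicate 2 was left out (0.46, adjusted p = 0.0127 for distal; 0.40, adjusted p = 0.0255 for mid).

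Fewer of the genes differed by region in control medium. Tmprss4 and Klk1 were higher in distal than in proximal organoids, 2 of the 9 (background 10.5%), and Tmprss4, Klk1 and Slpi were higher in mid than in proximal organoids, 3 of the 9 (13.3%). Tmprss4 was higher by 0.83 ± 0.17 in distal and 1.0005 ± 0.17 in mid organoids (log2, SE; limma adjusted p = 0.00443 and 0.000994). The mid difference of Slpi, 1.75 ± 0.48 (adjusted p = 0.0264), did not pass without mid control replicate 1 (1.36, adjusted p = 0.129) or without proximal control replicate 1, 2 or 3 (1.71, 1.74 and 1.78; adjusted p = 0.0531, 0.0810 and 0.0727). With all libraries kept it did not pass with no filter on low values (1.75, adjusted p = 0.0585) or with limma voom on the recovered reads (5.38, adjusted p = 0.102). The distal difference of Slpi, 1.36 ± 0.48, missed the threshold (adjusted p = 0.0952) and passed with a pseudocount of 0.1 (3.59, adjusted p = 0.000972). Between distal and mid organoids, limma called 0 of the 9 genes in differentiation medium (background 0.69%) and 0 of the 9 in control medium (0.326%). At an unadjusted p under 0.05, 1 gene was below the threshold in control medium, Klk1 at -1.16 ± 0.29 (adjusted p = 0.138), and 0 in differentiation medium. Limma voom on the recovered reads also called 0 of the 9 in each. The distal libraries of Klk1 in control medium all lay below the mid libraries, whereas in differentiation medium the 2 regions overlapped.

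The medium response itself differed between regions for 3 of the 9 genes (moderated F test in limma; background 9.59% of all genes tested). Tmprss2 (adjusted p = 0.000118), Slpi (0.000893) and Prss8 (0.0239) passed. The response of Tmprss2 was larger by 1.51 ± 0.18 in distal than in proximal organoids and by 1.28 ± 0.18 in mid than in proximal organoids (log2, SE; adjusted p = 8.88e-05 and 0.000329), and it passed under all alternatives run. For Slpi the response was larger by 4.72 ± 0.69 in distal and 3.71 ± 0.69 in mid organoids (adjusted p = 0.000554 and 0.00299), and by 4.05 in distal organoids without distal differentiation replicate 1. With limma voom on the recovered reads the differences in Slpi response, 5.25 for distal and 4.02 for mid organoids, did not pass (adjusted p = 0.340 and 0.428; F test 0.510), which does not show that the responses were alike. The proximal groups hold 3 reads each. In mid organoids the response of Prss8 was lower by -0.70 ± 0.16 than in proximal organoids (adjusted p = 0.0104). The distal response of Prss8, at -0.49 ± 0.16 against the proximal, missed the threshold (adjusted p = 0.0721) and passed without proximal differentiation replicate 1 (-0.61, adjusted p = 0.0181), without distal differentiation replicate 1 (-0.57, adjusted p = 0.0385) or without distal control replicate 3 (-0.57, adjusted p = 0.0383). In all, 2 of the 9 genes were called between distal and proximal responses (background 8.24%), 3 between mid and proximal (12%) and 0 between distal and mid (0.031%), where 0 also had an unadjusted p under 0.05 and voom called 0. The F test of Prss8 did not pass without proximal differentiation replicate 2 or 3 (adjusted p = 0.0618 and 0.0691), proximal control replicate 1 or 2 (0.0519 and 0.0767) or mid control replicate 1 or 2 (0.0522 and 0.0520). Klk1 responses passed between distal and proximal organoids without proximal differentiation replicate 2 (1.46, adjusted p = 0.0478; 1.26 and 0.0693 with all libraries), and Spint1 responses between mid and proximal organoids without the same library (0.57, adjusted p = 0.0360; 0.44 and 0.119 with all libraries). The media comparisons of the 3 regions share no libraries, whereas the 3 response differences share those of the region they have in common.

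**Figure D2:**
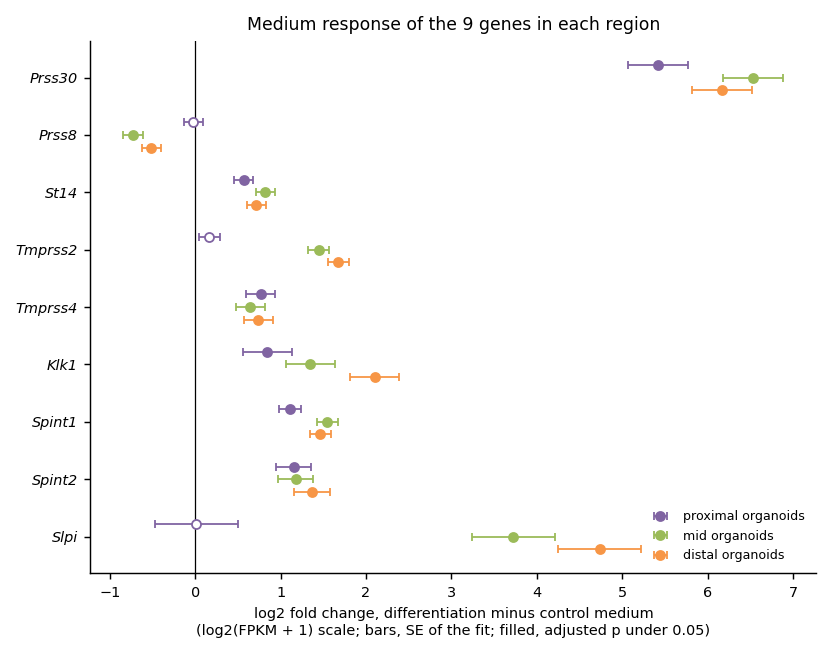
Log2 fold change of each of the 9 genes between differentiation and control medium on the log2(FPKM + 1) scale, with the SE of the fit, in proximal, mid and distal organoids, filled where the limma adjusted p was under 0.05. Tmprss2 and Slpi sat near 0 in proximal organoids (0.17 and 0.01) and at 1.45 to 4.73 in mid and distal organoids, and Prss8 lay below 0 in mid and distal organoids. The proximal value of Slpi rests on 3 reads in each group, where this scale keeps even a several-fold change near 0.

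Levels were also set against each other within each library, as ratios of FPKM and without a test. The ratio of St14 to Prss8 was 3.61 ± 0.175 in proximal, 6.56 ± 0.435 in mid and 4.96 ± 0.124 in distal organoids in differentiation medium, against 2.38 ± 0.146, 2.15 ± 0.155 and 2.08 ± 0.400 in control medium (SD, n = 3 each). All 9 differentiation libraries (3.41 to 7.06) were above all 9 control libraries (1.83 to 2.54). The ratio of Spint1 to St14, inhibitor to matriptase, was 2.57 to 3.74 in differentiation medium and 1.81 to 2.40 in control medium. The ratio of Spint2 to Prss8 was 20.8 ± 4.16 in proximal, 36.0 ± 3.54 in mid and 32.2 ± 4.40 in distal organoids in differentiation medium, against 9.07 ± 0.707, 9.24 ± 0.162 and 8.60 ± 1.81 in control medium. For these pairs, inhibitor RNA relative to protease RNA was higher in every differentiation library than in any control library. The sums over all 9 genes separated the media in proximal organoids alone. There the 3 inhibitors summed to 2.22 ± 0.251 times the 6 proteases in differentiation medium, against 1.75 ± 0.0189 times in control medium. In mid organoids the ratio was 1.30 ± 0.0454 in differentiation medium and 1.33 ± 0.0353 in control medium, and in distal organoids it was 1.505 ± 0.0877 in differentiation medium and 1.40 ± 0.114 in control medium, with overlap in both regions. Tmprss2 made up 25.2% ± 4.39 of the protease sum in proximal, 36.4% ± 5.94 in mid and 45.7% ± 4.43 in distal organoids in differentiation medium, against 39.0% ± 2.23, 35.3% ± 1.15 and 39.0% ± 5.15 in control medium. Slpi was 10.5% ± 6.49 of the inhibitor sum in distal and 6.71% ± 2.48 in mid organoids in differentiation medium, and at most 0.0153% in a proximal differentiation library.

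**Figure D3:**
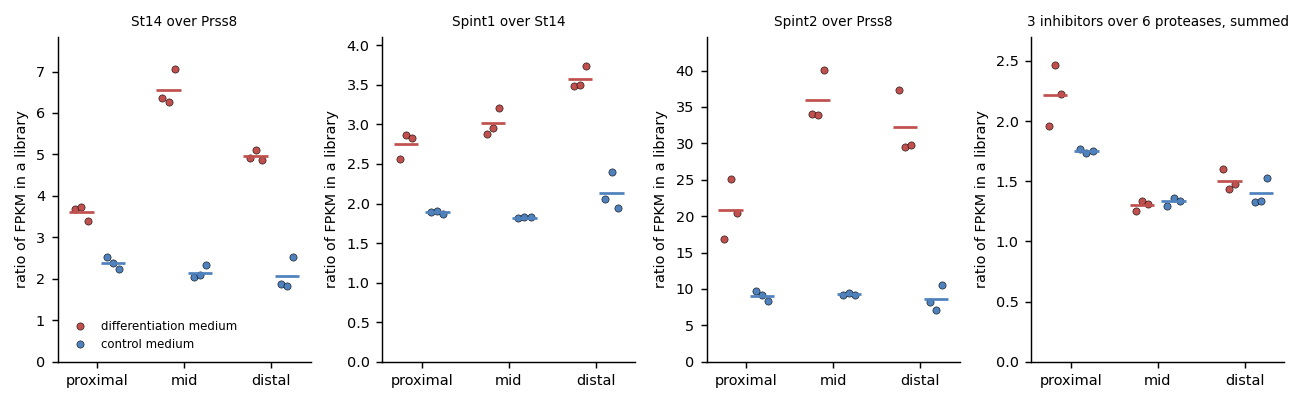
Ratios of FPKM within each library (points) with group means (lines) for St14 over Prss8, Spint1 over St14, Spint2 over Prss8 and the 3 inhibitors over the 6 proteases, in differentiation (left, red) and control medium (right, blue). In the first 3 panels all differentiation libraries lie above all control libraries, and in the last the media separate in proximal organoids only.

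Other proteases and inhibitors of epithelia moved in both directions between media, as did genes at large. Of all genes tested, the shares that rose and fell were 27.6% and 26.2% (proximal), 31.5% and 32% (mid), and 31.6% and 31.3% (distal). Whether the lists below departed from these shares was not tested. Of 37 other epithelial serine protease genes 15 passed the filter, and 3 rose and 5 fell in proximal, 2 rose and 7 fell in mid and 2 rose and 11 fell in distal organoids. Prss32, a tryptase-like protease, had the highest level, at 138 ± 14.1 FPKM in proximal, 441 ± 14.7 in mid and 441 ± 62.2 in distal organoids in differentiation medium, against 63.9 ± 16.5, 114 ± 11.3 and 110 ± 23.7 FPKM in control medium. Prss23 rose by 2.44 ± 0.26 in proximal, 3.20 ± 0.26 in mid and 3.32 ± 0.26 in distal organoids, while Prss22, another tryptase-like protease, fell, with log2 fold changes of -3.27 ± 0.60, -3.05 ± 0.60 and -2.38 ± 0.60 (SE; limma adjusted p of 0.00295 or lower). Plau, the urokinase plasminogen activator, also fell, at -2.64 ± 0.40 in proximal, -2.04 ± 0.40 in mid and -1.84 ± 0.40 in distal organoids (adjusted p of 0.00102 or lower). Among 39 other inhibitor genes 15 passed the filter, and 3 rose and 3 fell in proximal, 5 rose and 5 fell in mid and 5 rose and 6 fell in distal organoids. Spink1, which encodes a trypsin inhibitor, was at 0 to 0.109 FPKM in proximal organoids in both media, as low as Slpi, and averaged 43.8 ± 14.9 FPKM in mid and 34.7 ± 4.76 FPKM in distal organoids in differentiation medium, against 1.45 ± 0.589 and 1.38 ± 0.845 FPKM in control medium. Its response was larger by 3.88 ± 0.37 in distal and 4.08 ± 0.37 in mid than in proximal organoids (adjusted p = 1.15e-05 and 6.73e-06). At such low proximal levels the log2(FPKM + 1) scale keeps even a several-fold change near 0. The fold of Spink1 between media in proximal organoids therefore cannot be told. Serpinb1a, an inhibitor of neutrophil elastase, rose by 2.36 ± 0.21 in proximal, 3.06 ± 0.21 in mid and 3.37 ± 0.21 in distal organoids, to 379, 454 and 442 FPKM by mean. Of 24 mast cell and pancreatic protease genes 4 passed the filter, and 1 rose and 1 fell in proximal, 1 rose in mid, and 2 rose and 1 fell in distal organoids.

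Among 25 known substrates and partners 24 were measured and 14 passed the filter. In proximal organoids 5 of the 14 rose and 5 fell, and in each of the other regions 7 rose and 3 fell. These counts were likewise not tested against the shares of all genes given above. Scnn1a, the alpha subunit of the epithelial sodium channel, rose by 0.68 ± 0.13 in proximal, 2.28 ± 0.13 in mid and 2.31 ± 0.13 in distal organoids (log2, SE; limma adjusted p = 0.000512, 4.19e-09 and 4.77e-09). Its response was larger by 1.63 ± 0.18 in distal and 1.60 ± 0.18 in mid than in proximal organoids (adjusted p = 6.03e-05 and 6.94e-05). The beta and gamma subunits, Scnn1b and Scnn1g, did not pass the filter, and Scnn1g was highest in distal organoids in differentiation medium, at 1.87 ± 0.9999 FPKM. F2rl1, which encodes the protease-activated receptor PAR2, rose by 1.15 ± 0.23 in mid and 1.53 ± 0.23 in distal organoids (adjusted p = 0.000407 and 3.76e-05), and differed by 0.14 ± 0.23 in proximal organoids (adjusted p = 0.615). Epcam and Cldn7, an adhesion protein and the claudin bound to it, rose in all 3 regions, by 0.71 to 1.17 on the log2 scale. Met and Mst1r, the receptors whose ligands are activated by such proteases, differed: Mst1r rose in all 3 regions by 0.59 to 0.72, whereas Met fell by 0.44 ± 0.10 in proximal organoids, rose by 0.31 ± 0.10 in mid organoids and was at 0.17 ± 0.10 in distal organoids (adjusted p = 0.00206, 0.0141 and 0.150).

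**Figure D4:**
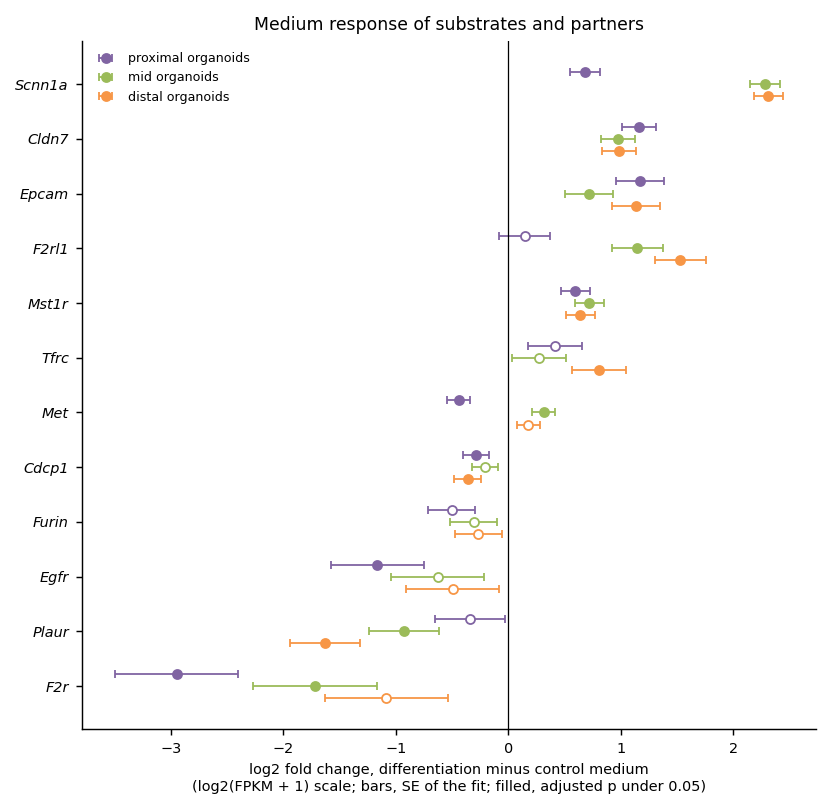
Log2 fold change between differentiation and control medium, on the log2(FPKM + 1) scale with the SE of the fit, of 12 substrates and partners that passed the filter, in proximal, mid and distal organoids, filled where the limma adjusted p was under 0.05. Scnn1a lies at 0.68 in proximal and at 2.28 and 2.31 in mid and distal organoids, and Met lies at -0.44 in proximal and at 0.31 in mid organoids.

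Genes nearest to the 9 were found by Pearson correlation of log2(FPKM + 1) over the 18 libraries, which share medium and region, and are given as a description. Prss30, St14, Spint1 and Spint2 correlated with each other at r of 0.955 to 0.984, and the nearest genes were Klc4 for Prss30 (0.996) and Mapk3 for Spint2 (0.991). Tmprss2 and Slpi correlated at 0.965, with Tnni1 nearest to Tmprss2 (0.989) and the colonocyte water channel gene Aqp8 nearest to Slpi (0.981). Klk1 and Tmprss4 correlated at 0.922, with Spink4, a Kazal-type inhibitor gene of goblet cells, nearest to Klk1 (0.981) and Cadps2 nearest to Tmprss4 (0.964). Prss8 correlated negatively with each of the other 8 genes (-0.852 to -0.595) and its nearest gene was Eif2a, which encodes a translation initiation factor (0.963). Spink4 itself was 116 ± 48.0 FPKM in mid and 96.1 ± 39.1 FPKM in distal organoids in differentiation medium, and 8.60 ± 1.93 FPKM in proximal organoids.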

How the data were processed

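The authors deposited 1 FPKM value for each gene in each library, per the file headers. HISAT2 2.0.5, featureCounts 1.5.0-p3 and the mm39 build come from the submitters' processing notes, and the annotation release and library scaling are not given in the sources used here. FPKM times gene length fell on whole reads in every library within 0.001 of a read, which gave the depth; intervals and counts of reads cover counting error only. The positions printed for genes on mm39 were read from the same table. Genes that reached an FPKM of 1 in 3 or more libraries (12896, with all 9 genes of interest) were fitted as log2(FPKM + 1) with limma 3.58.1 in R 4.3.3, with 1 mean for each of 6 groups, a trend, 12 residual degrees of freedom, two-sided tests and Benjamini-Hochberg adjustment over all genes within a comparison (threshold 0.05). The code was tested on simulated data. All 9 genes were named; of other lists, the genes with the largest fold change (up to 4 a list), any substrate that passed the filter, and the nearest gene of each member (some are not reported here); Scnn1b and Scnn1g were added after their values were seen. The members and lists were chosen with earlier results of these data known. The alternatives were 8 other settings and leaving out each of 18 libraries. Leaving out libraries from the ratios of Slpi reads was added after the data were seen. Tables and plots used Python 3.11.15, pandas 2.3.3, numpy 2.4.6 and matplotlib 3.10.9.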

Additional observations from a re-analysis of the deposited data

Results flagged for a closer look

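The medium response differed between regions, by a test of the difference itself, for 3 of the 9 genes (moderated F test in limma; 9.59% of all genes tested). The response of Tmprss2 was larger by 1.51 in distal than in proximal organoids and by 1.28 in mid than in proximal organoids (log2; limma adjusted p = 8.88e-05 and 0.000329). That of Slpi was larger by 4.72 in distal and by 3.71 in mid than in proximal organoids (adjusted p = 0.000554 and 0.00299). That of Prss8 was lower, at -0.70, in mid than in proximal organoids (adjusted p = 0.0104). With limma voom on the recovered reads the F test of Slpi did not pass (adjusted p = 0.510), and that of Prss8 did not pass when any of 6 libraries was left out in turn (adjusted p = 0.0519 to 0.0767).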

How the results depend on the processing

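Values of single genes recomputed under other settings were counted for all 9 genes between media. For the other comparisons only genes that passed in the fit described or under another setting were counted. Of the values counted, 822 kept their direction and side of the threshold, 36 no longer passed, 14 newly passed and 7 changed sign. The sign changes fell on proximal medium differences that never passed in the fit described: Tmprss2 was -0.15 when rescaled to summed reads and -0.28 after quantile normalization, Slpi was -0.0075 when rescaled, and leaving out single libraries gave -0.0967 to 0.0932 for Prss8 and -0.0220 to 0.0481 for Slpi. The count of the 9 genes called between distal and proximal organoids in differentiation medium was 3 when only those groups were fitted, against 5, and the count for the distal minus proximal response was 1 with limma voom, against 2. The cause was not tested. With a replicate block, Slpi passed between distal and proximal organoids in control medium (log2 1.36, adjusted p = 0.0409) and Prss30 no longer passed between mid and proximal organoids in differentiation medium (log2 1.003, adjusted p = 0.0517). The labels do not say that the numbers pair samples. Deviations of the 45 same-numbered pairs correlated at -0.387 to 0.542 (median 0.107), with 23 over 0.1. The 90 pairs with different numbers correlated at -0.468 to 0.399 (median -0.063), with 20 over 0.1. Of 18 libraries, 10 correlated best with their own number. The fit described has no term for a shared replicate number. The proximal values of Slpi rest on 3 reads in each group, which limits how small a difference between media could be seen there.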
